A study of Homo sapiens with 12 samples.

Results

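The microRNAs (miRNAs) described here come from the large imprinted miRNA cluster of chromosome 14, from the precursor of miR-379 to that of miR-656. A list of 42 mature miRNAs was chosen by name with their changes over time in these same libraries already known, and all 42 were found among the 2588 mature miRNAs of the count table. The study followed the epithelial-to-mesenchymal transition (EMT) that TGF-β sets off in A549 cells, an established line of human lung adenocarcinoma with alveolar epithelial features. Cells were taken at 0 h, after 24 h and after 96 h with TGF-β, with 2 small RNA libraries per time point. The 12 samples are taken here as 2 sequencing runs of each library, which the labels do not state. All libraries came from this single line without any genetic change, and the 0 h libraries were the only reference, because no culture kept without TGF-β for 24 h or 96 h is among the 12 samples. Time in culture and TGF-β therefore cannot be told apart. The sample titles end in a date, whose meaning the labels do not give, and the earlier date was the same for every library. The later date was shared by both 24 h libraries and the second 0 h library. Both 96 h libraries and the first 0 h library shared a different one. A difference between 24 h and 96 h thus cannot be told apart from this date, and differences from 0 h are mixed with it in part. The labels do not say whether both libraries of a time point came from separate cultures, so the spread between them may be technical.

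A miRNA is cut from a hairpin precursor, and either the 5′ arm (5p) or the 3′ arm (3p) of the hairpin can be loaded into Argonaute to repress messenger RNAs, which it finds mainly by pairing through its seed, bases 2 to 8. The chromosome 14 cluster belongs to the DLK1-DIO3 imprinted region. Its miRNAs are made from the maternal chromosome, from long non-coding transcripts that also give MEG3, MEG8 and MEG9, and they are best known from placenta, embryo and brain, where miR-134 acts at neuronal synapses.

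All 42 members matched a mature sequence in RefSeq (GRCh38.p14). The 12 with the highest mean level over the 6 libraries are shown first, in falling order, because they carried most of the signal of the cluster. Capitals mark the seed.
hsa-miR-381-3p: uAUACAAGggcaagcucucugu
hsa-miR-409-3p: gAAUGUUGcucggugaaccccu
hsa-miR-379-5p: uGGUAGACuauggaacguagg
hsa-miR-889-3p: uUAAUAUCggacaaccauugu
hsa-miR-411-5p: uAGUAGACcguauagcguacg
hsa-miR-654-3p: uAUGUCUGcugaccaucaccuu
hsa-miR-134-5p: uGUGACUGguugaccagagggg
hsa-miR-323a-3p: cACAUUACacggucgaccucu
hsa-miR-494-3p: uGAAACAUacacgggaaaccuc
hsa-miR-543: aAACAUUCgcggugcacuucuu
hsa-miR-382-5p: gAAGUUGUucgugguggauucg
hsa-miR-369-3p: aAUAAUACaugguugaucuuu

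The next 8 members are shown because they form the 4 seed groups within the cluster, and miRNAs of a seed group can pair with overlapping sets of messenger RNAs.
hsa-miR-154-3p: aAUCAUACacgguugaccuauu
hsa-miR-487a-3p: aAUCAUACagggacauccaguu
hsa-miR-379-3p: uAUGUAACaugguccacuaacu
hsa-miR-411-3p: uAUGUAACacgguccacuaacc
hsa-miR-485-3p: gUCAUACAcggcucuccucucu
hsa-miR-539-3p: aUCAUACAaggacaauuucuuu
hsa-miR-376a-3p: aUCAUAGAggaaaauccacgu
hsa-miR-376b-3p: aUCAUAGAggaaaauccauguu

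The sequences of the members were closely related in part. miR-376a-3p and miR-376b-3p differed by 2 edits, miR-376a-3p and miR-376c-3p by 2, and miR-379-3p and miR-411-3p by 2, so that reads with an error or an edited base could be counted for the neighbour. The values of these 5 miRNAs are uncertain to that extent. The seeds of the first and the third pair of lines, AUCAUAC and UCAUACA, are the same stretch shifted by 1 base. The 5 letters AUACA, a motif noted after the sequences had been read, were found on the given strand in 11 of the 42 members (26.2%) and in 22 of the 434 tested miRNAs with a RefSeq sequence (5.07%). The median GC content of the members was 45.5% against 47.6% among the tested miRNAs. An A was the first base of 20 members (47.6%), against 31.1% of the tested miRNAs.

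The 32 precursors that give the 42 members all lie on the plus strand of chromosome 14. In GRCh37 they run from chr14:101488403-101488469 (MIR379) to chr14:101533061-101533138 (MIR656), a span of 44.7 kb. The hairpins of 31 precursors had an exact match there, and for MIR381 the annotated position, chr14:101512257-101512331, was used. Neighbouring precursors were separated by a median of 727 bases, with gaps from 70 to 5853 bases. By GENCODE, the first 11 precursors, MIR379 to MIR495, lie in introns of MEG8. The next 5, MIR376C, MIR376A2, MIR654, MIR376B and MIR376A1, lie in no annotated host. The last 16, MIR381 to MIR656, lie within MEG9, 11 of them in introns and 5 (MIR487A, MIR382, MIR134, MIR485 and MIR323B) in exons. miR-329-3p and miR-376a-3p are each made from 2 precursors and cannot be assigned to either one.

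The libraries held 2335185 to 5971197 counts on mature miRNAs, and both 96 h libraries were the deepest. miR-21-5p alone took 52.4% to 58.1% of the counts at 0 h and 24 h and 65.5% and 63.8% in the 96 h libraries. Levels below are counts per 1000000 counts (CPM) scaled by TMM, a normalization that sets the bulk of the miRNAs level between libraries. Its factors were 1.17 and 1.36 at 0 h and 0.738 and 0.791 at 96 h, so that the choice of scaling mattered for these data. With the total count in its place the median of all tested miRNAs, as the log2 fold change at 96 h against 0 h, moved from -0.10 to -0.83. Of the lists checked for other cells, 0 of 5 fibroblast miRNAs and 0 of 5 blood cell miRNAs were abundant enough to test. miR-214-3p, miR-214-5p, miR-223-3p and miR-150-5p were at 0 counts in all 6 libraries. The fibroblast list summed to between 0.372 and 4.31 CPM over the libraries and the blood cell list to between 0.814 and 4.76 CPM. Both endothelial miRNAs were measured, summing to between 404 and 516 CPM, and this sum overlapped between time points. Of the 5 epithelial miRNAs 4 were tested and miR-205-5p was not. Their sum was 108 and 106 CPM at 0 h, 142 and 172 CPM at 24 h and 230.2 and 219 CPM at 96 h, and thus moved with the members. The list itself was divided, with 2 of the 4 tested above 0 and 2 below 0 at 96 h against 0 h. The log2 fold changes were 1.60 ± 0.20 for miR-200b-3p, which was called, and 0.81 ± 0.20 for miR-200a-3p, -0.03 ± 0.29 for miR-200c-3p and -1.14 ± 0.59 for miR-141-3p, which were not. Their part in the result was not tested. In bulk RNA, more cells that make a miRNA and more of it per cell cannot be told apart.

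As a group the members were a small part of the miRNA pool that grew with time. They took 0.304% and 0.330% of all mature miRNA counts in the 0 h libraries, 0.344% and 0.354% of those at 24 h, and 0.454% and 0.451% of those at 96 h. The means were 0.317% ± 0.0180 (SD, n = 2), 0.349% ± 0.00716 and 0.453% ± 0.00221. The time points did not overlap in this share, which does not depend on TMM. The 95% Wilson intervals of single libraries spanned 0.297% to 0.337% at 0 h and 0.445% to 0.460% at 96 h, and cover counting error only. On the TMM scale the members summed to 2603 and 2417 CPM at 0 h, 3261 and 3483 CPM at 24 h and 6159 and 5704 CPM at 96 h. Leaving out the most abundant member, miR-381-3p, the sums were 972 and 886, 1346 and 1430, and 2321 and 2296 CPM, in the same order. An exact permutation test of 2 libraries against 2 cannot go below p = 0.333, and since the members were chosen on these contrasts no test of their rise is given.

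Of the 42 members, 37 had enough counts to be tested and 5 did not. The 5 were miR-299-5p, miR-380-3p, miR-376a-5p, miR-539-5p and miR-377-5p, and the largest count of any of them in a library was 14. That count belonged to miR-377-5p, with 0 and 2 counts in the 0 h libraries, 4 and 10 in those of 24 h, and 13 and 14 in those of 96 h. A library with 0 counts allows a level of up to 3 counts, or 1.28 CPM of the total count in the first 0 h library. Among the 37 tested, 29 had at least 10 counts in every library. miR-154-3p and miR-369-5p were under 10 counts in both 0 h libraries and passed the filter on low counts through the later libraries.

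miR-381-3p dominated the cluster. It held 58.7% to 63.3% of the members' counts in every library, and its level was 1632 and 1531 CPM at 0 h, 1914 and 2054 CPM at 24 h, and 3838 and 3408 CPM at 96 h. Against 0 h, its log2 fold change ± standard error was 0.33 ± 0.14 after 24 h and 1.20 ± 0.14 after 96 h, so that most of its difference on the log2 scale lay between 24 h and 96 h. On the TMM scale the 3 time points did not overlap. Per total count the 0 h and 24 h libraries did overlap. The second 0 h library gave 5128 of 2456447 counts, and the first 24 h library 5142 of 2545769.

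The 2 members next in level were close in fold change at 96 h. miR-409-3p was at 161 and 158 CPM at 0 h, 213 and 259 CPM at 24 h and 383 and 362 CPM at 96 h, and its log2 fold change at 96 h against 0 h was 1.23 ± 0.15. miR-379-5p, from the first precursor of the cluster, was at 147 and 127 CPM, 169 and 152 CPM, and 285 and 318 CPM at the same times, with a log2 fold change of 1.14 ± 0.16. For both, every library of a later time point lay above every library of an earlier one on the TMM scale. They differed in timing, since the log2 fold change at 24 h was 0.57 ± 0.15 for miR-409-3p and 0.23 ± 0.16 for miR-379-5p, a difference that was not tested by itself.

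miR-889-3p and miR-543 had the largest log2 fold changes at 96 h against 0 h among the 12 most abundant members. miR-889-3p was at 58.3 and 45.4 CPM at 0 h, 93.8 and 109 CPM at 24 h and 187 and 219.8 CPM at 96 h, with log2 fold changes of 0.97 ± 0.19 at 24 h and 1.97 ± 0.19 at 96 h. miR-543 was at 37.7 and 16.7 CPM, 39.8 and 60.0 CPM, and 106 and 101 CPM, with log2 fold changes of 0.90 ± 0.34 and 1.95 ± 0.33. The time points did not overlap for either, and the 0 h libraries of miR-543 were the farther apart.

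miR-411-5p and miR-134-5p stood at the lower end. miR-411-5p was at 77.3 and 63.3 CPM at 0 h, 122 and 90.9 CPM at 24 h and 133 and 138 CPM at 96 h. Its log2 fold change at 96 h against 0 h, 0.95 ± 0.20, was the smallest of the 12, and its larger step came before 24 h. miR-134-5p was at 64.1 and 81.2 CPM, 83.0 and 79.9 CPM, and 146 and 142 CPM. Its 0 h and 24 h libraries overlapped, and its log2 fold change was 0.16 ± 0.18 at 24 h and 0.98 ± 0.17 at 96 h. These were the 2 of the 12 that did not pass a log2 fold change of 1 at 96 h against 0 h.

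The other 5 of the 12 also rose in both steps, by amounts that differed between them. miR-654-3p was at 68.9 and 37.9 CPM at 0 h, 93.1 and 108 CPM at 24 h and 174 and 130.0 CPM at 96 h. miR-323a-3p was at 43.2 and 31.3 CPM, 50.3 and 63.3 CPM, and 96.5 and 97.7 CPM. miR-494-3p was at 38.5 and 37.9 CPM, 54.7 and 63.0 CPM, and 98.7 and 84.4 CPM. In all 3 the time points did not overlap. miR-382-5p was at 24.6 and 30.4 CPM, 34.3 and 35.2 CPM, and 61.3 and 69.2 CPM. miR-369-3p was at 22.7 and 26.0 CPM, 31.3 and 43.8 CPM, and 66.1 and 62.4 CPM. The log2 fold changes of these 5 at 96 h against 0 h were 1.52 ± 0.27 for miR-654-3p, 1.39 ± 0.21 for miR-323a-3p, 1.26 ± 0.19 for miR-494-3p, 1.24 ± 0.20 for miR-382-5p and 1.40 ± 0.22 for miR-369-3p.

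**Figure D1:**
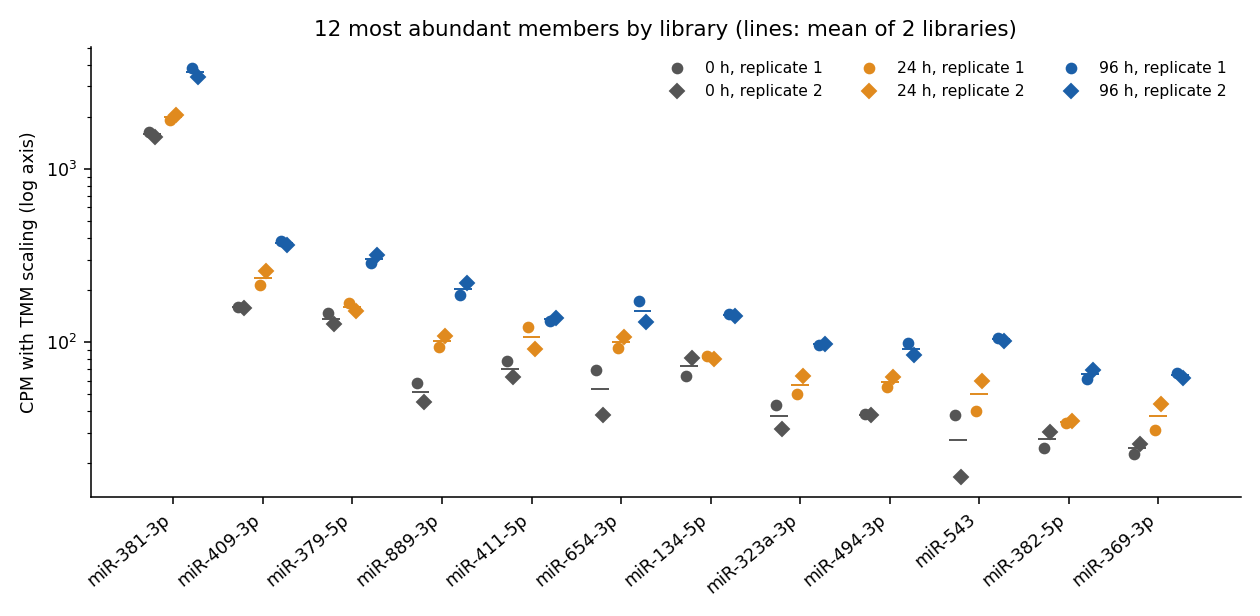
Level of the 12 most abundant members in each of the 6 libraries, in CPM with TMM scaling on a log axis. Circles are replicate 1, diamonds replicate 2 and short lines the mean of a time point, and in 11 of the 12, all but miR-134-5p, every 24 h library lies above both 0 h libraries and below both 96 h libraries.

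The 12 together made up 90.1% of the members' summed mean level. The other 25 tested members ranged from 3.81 to 40.3 CPM on average, and the highest and the lowest tested member differed 629.6-fold in mean level. Their counts were low, with standard errors of the log2 fold change at 96 h against 0 h of up to 0.65 among all tested members, against 0.14 for the best measured.

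Across the whole table, miRNAs were called at an adjusted p under 0.05 (quasi-likelihood test of edgeR, with Benjamini-Hochberg adjustment over the 491 tested miRNAs) with an absolute log2 fold change above 1. At 24 h against 0 h, 0 of the 37 tested members were called in either direction, while 1.22% of all tested miRNAs were called higher and 2.24% lower. Of the 37, 26 were called higher at 96 h against 0 h and 0 lower, where the whole table had 12.6% higher and 13.2% lower. miR-495-3p and miR-889-3p were called higher at 96 h against 24 h and no member lower, beside 3.67% higher and 2.24% lower in the whole table. With DESeq2 in place of edgeR 1 member was called at 24 h against 0 h, and without a minimum fold change 2 were. Leaving out 0 h replicate 1 or 0 h replicate 2 made it 7 or 3. The 2 members called at 96 h against 24 h became 0 without 24 h replicate 1 and 4 without 24 h replicate 2. These counts describe how the list was chosen and are not tests of it.

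The median log2 fold change of the tested members was 0.66 at 24 h and 1.33 at 96 h, both against 0 h, and 0.77 from 24 h to 96 h. The medians of all tested miRNAs were -0.0041, -0.10 and -0.05. The first 2 of these comparisons share the 0 h libraries and the first and the last share the 24 h libraries. In each comparison 35 of the 37 members lay above 0 under TMM. With scaling to the total count 30, 34 and 28 did, and the medians were 0.36, 0.60 and 0.33, against -0.30, -0.83 and -0.49 for all tested miRNAs. Under that scaling 8 members were called higher at 96 h against 0 h, beside 4.68% of all tested miRNAs called higher and 39.1% called lower, and the direction at 24 h of some members thus depended on the scaling.

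In terms of separation between libraries, in 28 of 37 members both 24 h libraries exceeded both 0 h libraries, beside 29.3% of all tested miRNAs, and in 1 both lay below, beside 28.5%. Both 96 h libraries lay above both 0 h libraries in 34 of 37, beside 33%, and above both 24 h libraries in 32 of 37, beside 30.3%. In 25 of 37 the 3 time points followed each other without overlap, in the order 0 h, 24 h, 96 h, beside 17.1% of all tested miRNAs. These counts, and what is said of overlap in the levels of single miRNAs, refer to the TMM scale. The counts were not repeated with scaling to the total count.

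The difference built up over the whole time course. In 33 of the 37 tested members the log2 difference was above 0 in both steps, from 0 h to 24 h and from 24 h to 96 h. The second, longer step was the larger in 17 of the 33 and the first in 16. In these 33 the share of the 96 h difference that was present at 24 h had a median of 49.6%, from 16.5% to 88.7%. With both steps above 0 this share lies between none and all by definition. In the 4 members outside that condition, the 24 h difference divided by the 96 h difference ran from -1.92 (miR-376a-3p) to 2.62 (miR-376b-3p). Among the 12 most abundant members the second step was the larger in 10 under TMM, and miR-411-5p and miR-654-3p were the exceptions. The remaining 4 of the 37 went below 0 in 1 step: miR-154-5p and miR-376b-3p from 0 h to 24 h, and miR-329-3p and miR-376a-3p from 24 h to 96 h. Under scaling to the total count more members did so, as the counts above show. That scaling also moved the median of all tested miRNAs to -0.30 in the first step and -0.49 in the second. Which step was the larger therefore depends on the scaling, and it was not counted with the total count.

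miR-495-3p, with miR-889-3p one of the 2 members called between 24 h and 96 h, was at 13.6 and 7.46 CPM at 0 h, 11.5 and 16.5 CPM at 24 h and 44 and 38.3 CPM at 96 h. The 0 h and 24 h libraries overlapped, and the log2 fold change was 0.45 ± 0.34 at 24 h and 1.54 ± 0.29 from 24 h to 96 h.

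Members of each seed group were set side by side. In the group with seed UCAUACA, miR-485-3p was at 5.86 and 4.78 CPM at 0 h, 10.1 and 14.4 CPM at 24 h and 23.4 and 25.8 CPM at 96 h. miR-539-3p was at 5.50 and 5.97 CPM, 9.68 and 14.1 CPM, and 21.6 and 20.3 CPM. Both were called at 96 h, with log2 fold changes of 2.21 ± 0.31 and 1.86 ± 0.31, although their precursors lie about 8 kb apart. In the group with seed AUGUAAC, miR-379-3p was at 1.47 and 4.48 CPM at 0 h, 4.47 and 3.67 CPM at 24 h and 7.26 and 6.78 CPM at 96 h. miR-411-3p, from the next precursor, was at 5.50 and 2.69 CPM, 6.70 and 9.18 CPM, and 12 and 10.9 CPM. Their log2 fold changes at 96 h against 0 h were 1.18 ± 0.51 and 1.51 ± 0.41, and the second alone was called.

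In the group with seed AUCAUAC, miR-154-3p gave 1 and 6 counts in the 0 h libraries, 17 and 17 in those of 24 h, and 22 and 34 in those of 96 h, or 0.367 and 1.79, 6.33 and 5.20, and 4.99 and 9.23 CPM. Its log2 fold change of 2.59 ± 0.65 at 96 h against 0 h was the largest of the 37 and also had the largest standard error, since it rests on few counts. miR-487a-3p was at 5.13 and 1.19 CPM, 6.33 and 4.90 CPM, and 9.53 and 7.60 CPM, a log2 fold change of 1.50 ± 0.55. In the group with seed UCAUAGA neither member was called. miR-376a-3p was at 6.96 and 9.85 CPM at 0 h, 13.4 and 6.73 CPM at 24 h and 4.99 and 10.9 CPM at 96 h, and miR-376b-3p at 2.57 and 7.46 CPM, 4.10 and 3.67 CPM, and 3.63 and 5.70 CPM. Their log2 fold changes at 96 h against 0 h were -0.12 ± 0.47 and -0.16 ± 0.54, and all 3 time points overlapped. miR-376c-3p, whose seed differs from theirs, was at 12.1 and 17.6 CPM, 24.2 and 19.9 CPM, and 28.6 and 29.6 CPM.

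Outside the 4 groups, 9 members shared a seed with a miRNA outside the list, and 25 had a seed found in no other of the 2281 miRNAs of the table that had a RefSeq sequence. The partners were scarce. The highest of them, miR-3118, which shares its seed with miR-134-5p, averaged 5.88 CPM against 99.3 CPM for miR-134-5p, and miR-300, which shares the seed of miR-381-3p, had 1 count in all libraries together.

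Whether members departed from their own cluster was tested separately, since a shared rise cancels in that comparison. Each member was set against the summed counts of all tested members, itself included, with edgeR's diffSpliceDGE. miR-381-3p averaged 61.0% of the members' counts, so a departure is measured largely against miR-381-3p. A departure of miR-381-3p itself could hardly show. Each other miRNA was set in the same way against the tested miRNAs of its chain of neighbouring precursors. This covered 255 miRNAs in 77 clusters. The members' cluster thus held the listed miRNAs only. With the 3 other tested miRNAs of the downstream group (miR-1197, miR-1185-1-3p and miR-1185-2-3p) added to it, the same 2 members were called at 96 h against 0 h. In all, 16 of 255 miRNAs departed at 96 h against 0 h (6.27%), and 2 of them were members. miR-376a-3p fell behind the cluster by a log2 difference of -1.36 (adjusted p = 0.0341, diffSpliceDGE with Benjamini-Hochberg adjustment). miR-889-3p ran ahead of it by 0.73 (adjusted p = 0.0469, same test). miR-376b-3p had a difference of -1.40, close to that of miR-376a-3p, with an adjusted p of 0.0537, and miR-543 one of 0.70 with an adjusted p of 0.0739, both by diffSpliceDGE with Benjamini-Hochberg adjustment.

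Both calls were close to the threshold and rested on single libraries. For miR-376a-3p, the difference was -1.03 (adjusted p = 0.379) without 0 h replicate 2 and -0.83 (adjusted p = 0.600) without 96 h replicate 1, by the same edgeR test. For miR-889-3p the adjusted p was 0.186 without 0 h replicate 2, 0.239 without 96 h replicate 1 and 0.524 without 96 h replicate 2, again by edgeR. Without 0 h replicate 1, on the other hand, 5 members departed, with miR-543 and miR-495-3p ahead and miR-376b-3p behind in addition to these. With limma on log2 ratios the adjusted p was 0.285 for miR-376a-3p and 0.235 for miR-889-3p. The sign of each difference at 96 h against 0 h was the same in all alternatives run. In the comparisons of 24 h with 0 h and of 96 h with 24 h, 0 members departed, where 0.784% of the 255 miRNAs did in each comparison, and the lowest adjusted p among members was 0.193 and 0.135, by diffSpliceDGE. Without 0 h replicate 1, miR-543 and miR-654-3p were called at 24 h against 0 h, both ahead of the cluster. At an unadjusted p under 0.05 5 of 37 members stood out in each of these comparisons and 9 at 96 h against 0 h. Members that did not pass are not shown to have moved alike.

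**Figure D2:**
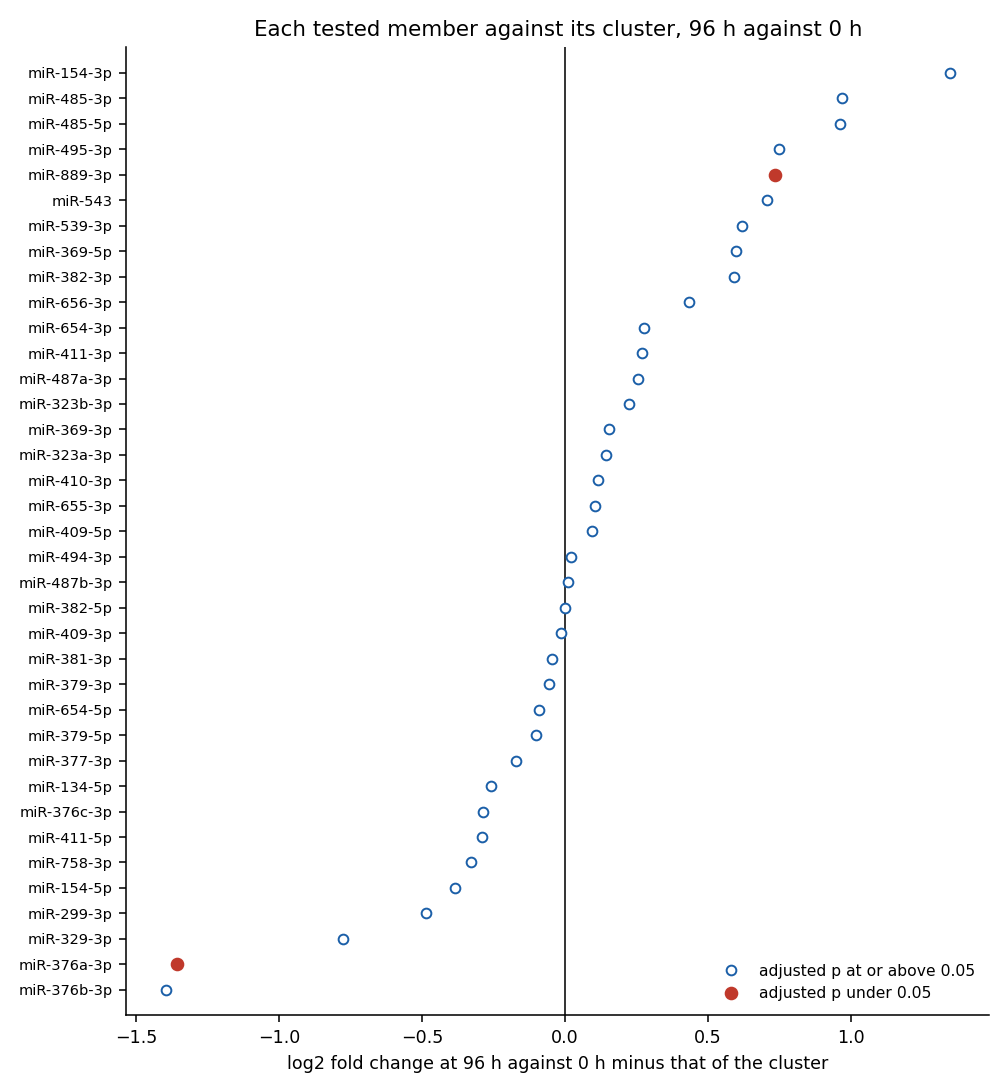
Log2 fold change of each tested member at 96 h against 0 h minus that of the summed counts of its cluster. Values are on the horizontal axis, with members sorted by them on the vertical axis. The filled points, miR-376a-3p at -1.36 and miR-889-3p at 0.73, had an adjusted p under 0.05 by edgeR's diffSpliceDGE, and the open points did not.

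Along the cluster, called members were found from the first precursor to the last. The 11 tested members within MEG8 had a median log2 fold change of 1.18 at 96 h against 0 h, from 0.46 to 1.99, and 6 were called. The 5 tested members from the precursors without a host had a median of 0.96, from -0.16 to 1.52, and 2 were called. These 5 include miR-376a-3p and miR-376b-3p. The 21 tested members within MEG9 had a median of 1.40, from 0.86 to 2.59, and 18 were called. Across the 37 members the log2 fold change at 96 h had a Pearson r of 0.31 and a Spearman rho of 0.33 with the distance from the first precursor, and 0.03 and 0.01 with log2 mean level. The points share the same 6 libraries and in part the same precursor, so these are descriptions only.

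**Figure D3:**
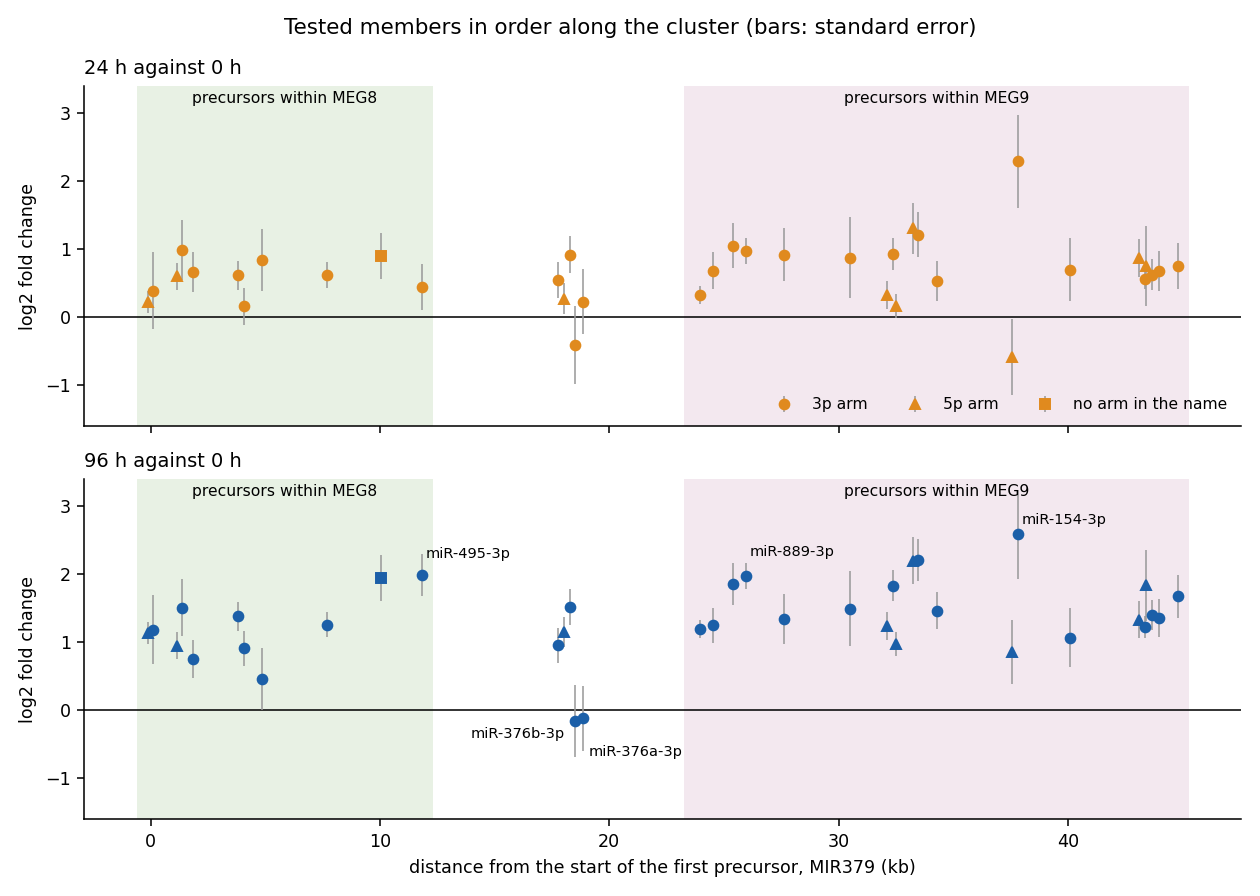
Log2 fold change of each tested member at 24 h (upper panel) and 96 h (lower panel) against 0 h, by the distance of its precursor from the start of MIR379 in kb, with standard errors as bars. Circles are 3p arms, triangles 5p arms and the square is miR-543, shading marks precursors within MEG8 and MEG9, and at 96 h the tested members other than miR-376a-3p and miR-376b-3p lie above 0. miR-376a-3p and miR-329-3p, each made from 2 precursors, are drawn at MIR376A1 and MIR329-1.

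The 3p arm was the arm listed for most members. Of the 42, 28 were 3p arms, 13 were 5p arms and miR-543 carries no arm in its name. The 3p arms held 85.0% of the summed mean level and the 5p arms 13.5%. Most of the 3p share was miR-381-3p, which averaged 61.0% of the members' counts. The median log2 fold change at 96 h against 0 h was 1.36 over 27 tested 3p arms and 1.15 over 9 tested 5p arms. At 24 h the medians were 0.68 and 0.33. From 24 h to 96 h the order was reversed, with medians of 0.66 for the 3p arms and 0.90 for the 5p arms.

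Both arms were tested for 8 precursors, and their ratio within a library is free of the scaling and was not used to choose the members. For miR-379 the 5p arm held 96.6% to 99.0% of the reads on both arms, and for miR-411 90.8% to 96.0%. For miR-409 it held 9.13% to 12.8% and for miR-369 5.43% to 12.6%. For these 4 precursors the arm in the majority was thus the same in all 6 libraries. miR-654 gave 17.2% to 34.2% of its reads from the 5p arm and miR-485 38.5% to 48.4%. The arm in the majority was the same in all 6 libraries for miR-654 and miR-485 too. For miR-485 the 0 h shares rest on 26 and 31 reads. Its second 0 h library had 15 reads on the 5p arm and 16 on the 3p arm. miR-382 gave 47.7% to 67.5% of its reads from the 5p arm, and its majority arm differed between libraries.

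The precursor of miR-154 had the least stable ratio. Its 5p arm took 90.0% and 64.7% of the reads in the 0 h libraries, 26.1% and 29.2% in those of 24 h, and 59.3% and 33.3% in those of 96 h. These shares rest on 10 and 17 reads, 23 and 24 reads, and 54 and 51 reads. With miR-154-3p admitted through the later libraries, the differences of this ratio from 0 h are a description only. The log2 fold change of the 5p arm minus that of the 3p arm at 24 h against 0 h was -2.88, with an adjusted p of 0.133 by edgeR's diffSpliceDGE with Benjamini-Hochberg adjustment. The same difference at 96 h against 0 h was -1.73 (adjusted p = 0.126, same edgeR test).

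By diffSpliceDGE, 0 of the 8 precursors were called for a change in arm use, and miR-154 alone had an unadjusted p under 0.05, at 24 h and at 96 h against 0 h. In the whole table of 108 precursors with both arms tested, 0 were called at 24 h against 0 h (0%), 22 between 0 h and 96 h (20.4%) and 1 between 24 h and 96 h (0.926%). At an unadjusted p under 0.05 the counts were 11, 38 and 23, and limma on log2 ratios called 0 in each comparison. The 22 became 8 without 0 h replicate 2, 4 without 96 h replicate 1 and 1 without 96 h replicate 2. With the first 0 h library left out, 1 of the 8, miR-382, was called at 96 h against 0 h (difference -0.98, adjusted p = 0.0449 by diffSpliceDGE).

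**Figure D4:**
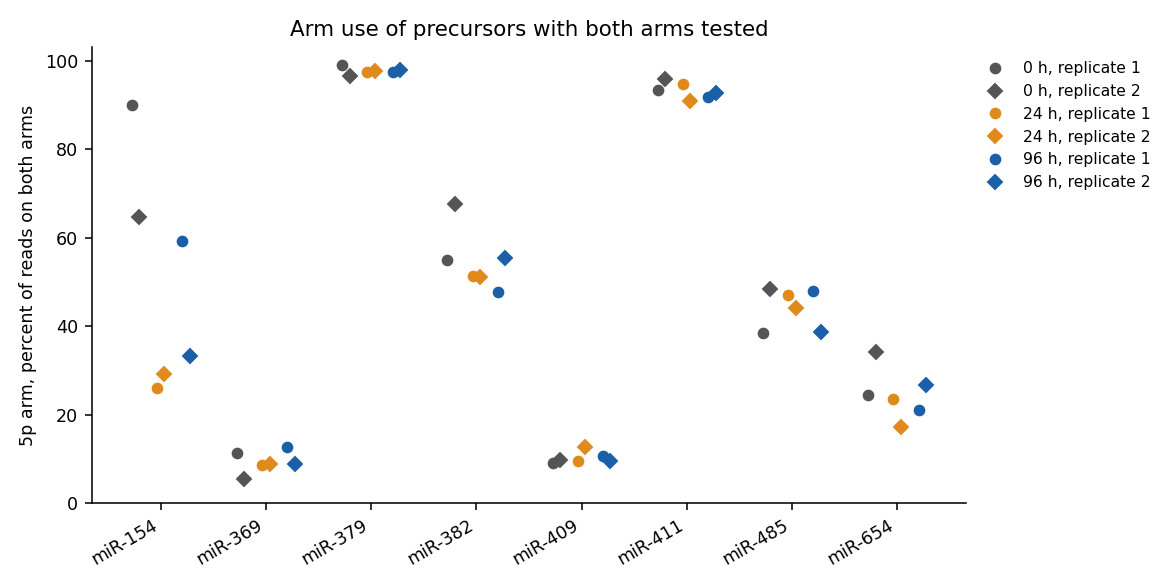
Share of reads on the 5p arm among reads on both arms, in percent, for the 8 precursors with both arms tested. Circles are replicate 1 and diamonds replicate 2, coloured by time point, and the libraries of miR-379, miR-411, miR-409 and miR-369 stay close together while those of miR-154 run from 26.1% to 90.0%.

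A further pair of lists from the same imprinted region was set beside the members, also with earlier results known. The upstream group around MEG3 and RTL1 had 18 listed miRNAs, of which 13 were tested. Their median log2 fold change was 0.71 at 24 h and 1.25 at 96 h against 0 h, and 2 and 8 of them were called higher, with none lower. The median from 24 h to 96 h was 0.61 and 1 was called higher. miR-127-3p, transcribed opposite to RTL1 and the highest of that group, was at 1014 and 1064 CPM at 0 h, 1142 and 1183 CPM at 24 h and 2020 and 2161 CPM at 96 h. miR-370-3p was at 83.9 and 87.8 CPM, 133 and 160.4 CPM, and 224 and 187 CPM. miR-493-5p was at 71.1 and 47.2 CPM, 125 and 119.7 CPM, and 184 and 200.2 CPM. All 3 were higher in both 96 h libraries than in any earlier one.

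The remaining 32 mature miRNAs of the downstream group, mostly the less abundant arms of the same precursors, were scarce, and 3 were tested. miR-1185-1-3p was at 8.43 and 8.96 CPM at 0 h, 12.7 and 9.49 CPM at 24 h and 12 and 11.7 CPM at 96 h. miR-1185-2-3p had a log2 fold change of 0.51 ± 0.53 and miR-1197 of 1.31 ± 0.49 at 96 h against 0 h. None of the 3 was called in any comparison. The list summed to 21.3 and 24.2 CPM at 0 h and 38.8 and 37.2 CPM at 96 h. The other large imprinted miRNA cluster, on chromosome 19, was barely detected, with at most 3 counts for a listed miRNA in any library. Of its 26 listed miRNAs 0 were tested, between 21 and 26 were at 0 counts in a library, and the list summed to at most 1.53 CPM.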

How the data were processed

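Small RNA libraries were made with an Illumina kit from total RNA of A549 cells. The 12 samples were read from their titles as 2 sequencing runs of each library. Each count column was taken as both runs together, which the labels do not state. Per the study's methods, miRNAs were quantified with miRDeep2, and the submitters' processing notes name the build hg19. The counts deposited by the authors are whole-number reads per mature miRNA and precursor, 1 column per library. The deposited normalized table was not used here, because it repeats 1 column name. Of its 2822 rows, the count table had 170 mature miRNAs on more than 1 row, and for these the row with the highest total was kept, leaving 2588. Among the 170 were 2 members. The members and the lists beside them were chosen with earlier results of these data known. Sequences came from RefSeq, positions from exact hairpin matches on GRCh37, and hosts from GENCODE 44 lifted to GRCh37.

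Libraries held 2335185 to 5971197 counts, so that 3 counts, the limit that a count of 0 allows, were 0.502 to 1.28 CPM of the total. The filter filterByExpr, set to a minimum count of 10, left 491 miRNAs with 99.96% of the counts. They were scaled by TMM and fitted in edgeR 4.0.16 (R 4.3.3) with a quasi-likelihood model of the 3 time points over all 6 libraries, with Benjamini-Hochberg adjustment. A call needed an absolute log2 fold change above 1 with an adjusted p under 0.05, limits that the study used. The standard error was taken from the log2 fold change and its F statistic. Arm use (108 precursors) and departure from the genomic cluster (255 miRNAs, with the 37 tested members as 1 cluster and other precursors chained at gaps of at most 10 kb) were tested with diffSpliceDGE on the same fit. The edgeR time comparison and both diffSpliceDGE tests were tested on simulated data for 96 h against 0 h, with a log2 fold change of 2. Of the calls made there, 1.06% were false for the time comparison, 6.86% for arm use and 6.4% for departure from the cluster. The last 2 lie above the limit of 0.05 set for the adjusted p. Smaller log2 fold changes were not tested in this way. Alternatives were DESeq2 1.42.0, limma 3.58.1 on log2 ratios with 0.5 counts added, other scalings, filters and samples, a replicate block, and leaving out each library.

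Values in every library are given for the 12 most abundant members, members that departed from the cluster and members that share a seed, and the others by ranges and counts. miR-495-3p and miR-376c-3p were added after their values were seen. Members were selected on the time comparisons, so that those carry no test here.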

Additional observations from a re-analysis of the deposited data

Results flagged for a closer look

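The effects at 24 h and at 96 h, measured against the same 0 h libraries, differed for 2 members in the direct comparison of both time points. The log2 fold change at 96 h against 24 h was 1.54 for hsa-miR-495-3p and 1.0 for hsa-miR-889-3p. Both passed the limits of an adjusted p under 0.05 and a log2 fold change above 1 in edgeR's quasi-likelihood test, and for miR-889-3p the fold change was at the limit itself. This contrast was known when the members were chosen, so the values are a description. Groups of 2 libraries are too small to look for single outlying libraries.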

How the results depend on the processing

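Direction held throughout for the members at 96 h against 0 h as a group, while counts of calls near the limits moved. The number of members called at 24 h against 0 h, 0 as reported, was 1 with DESeq2's size factors, the replicate block or the DESeq2 test, 2 with a mean of at least 10 CPM, with libraries thinned to the smallest total or with no minimum fold change, 3 with no filter, and 0 to 7 with each library left out. The number called at 96 h against 0 h, 26 as reported, was 8 with total counts and 15 with total counts without miR-21-5p. The number called at 96 h against 24 h, 2 as reported, was 4 with DESeq2's size factors, no filter or the replicate block, 1 with either total-count scaling, a mean of at least 10 CPM, all rows of the table or thinned libraries, 14 with no minimum fold change, and 0 to 4 with each library left out. Thinning, the share without miR-381-3p, and the members' cluster widened by the other tested downstream miRNAs, which left the counts of departures at 2, 16 and 2, were chosen after seeing the data.

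The median log2 fold change of the tested members at 24 h against 0 h was 0.36 with total counts, 0.47 with total counts without miR-21-5p, 0.54 under a mean filter of 10 CPM and 0.50 to 0.83 with each library left out. For 96 h against 0 h it came to 1.41 under DESeq2's size factors, 0.60 and 0.98 with the 2 total-count scalings, 1.19 with a mean of at least 10 CPM, 1.38 with only the libraries compared, 1.30 with thinned libraries and 1.26 to 1.41 with each library left out. From 24 h to 96 h it was 0.33 and 0.60 with the total-count scalings and 0.60 to 0.89 with each library left out. The share of counts held by the members at 0 h, 24 h and 96 h was 0.693%, 0.822% and 1.28% with miR-21-5p out of the total, 0.291%, 0.322% and 0.423% over all rows, and 0.117%, 0.144% and 0.176% without miR-381-3p.

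In the whole table, precursors called for arm use at 24 h against 0 h numbered 0 to 1 with each library left out. Between 0 h and 96 h they numbered 0 with limma and 1 to 32 with each library left out. Between 24 h and 96 h they numbered 8 with only the libraries compared, 0 with limma or the replicate block and 0 to 0 with each library left out. miRNAs that departed from their cluster at 24 h against 0 h numbered 0 with only the libraries compared or limma, 1 with the replicate block or the filter of 10 counts, and 0 to 7 with each library left out. For 96 h against 0 h they numbered 2 with the replicate block, 10 with the filter of 10 counts, 0 with limma and 1 to 25 with each library left out. For 96 h against 24 h they numbered 0 with the replicate block, the filter of 10 counts or limma, and 0 to 2 with each library left out. The departures of miR-376a-3p and miR-889-3p at 96 h against 0 h had adjusted p of 0.0651 and 0.0938 with the replicate block, and miR-889-3p also lost its call with only the libraries compared (0.0687) and with the filter of 10 counts (0.0580), all by edgeR. The cause of these moves was not tested.

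The replicate numbers were not taken as pairs. Deviations of same-numbered libraries from their time point's mean correlated at -0.30 (0 h and 24 h), 0.31 (0 h and 96 h) and -0.18 (24 h and 96 h) over 491 miRNAs. With 2 libraries a time point, and under 10 counts in some libraries, the rarer members have the least precise values.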
